A study of Mus musculus with 8 samples.

Results

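The TNF superfamily ligands and receptors were followed in tumors grown from Lewis lung carcinoma (LLC) cells, a mouse lung cancer line. Members were taken by name: every protein-coding mouse gene in the count table whose GENCODE M21 symbol begins with Tnfsf or Tnfrsf, together with Tnf, Lta, Ltb, Fasl, Cd40lg, Cd70, Eda, Cd40, Cd27, Fas, Ltbr, Ngfr, Edar, Eda2r and Relt. This rule gave 47 genes of the 55487 in the table, 19 ligands and 28 receptors, and used no measured value. Of these, 38 held enough reads to be tested (13 ligands and 25 receptors) among 16061 genes tested in all.

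RNA-seq was performed on 8 tumors, 4 from wild-type LLC cells and 4 from cells labelled Ago2 knock-out (ΔAgo2), which had been implanted under the skin of syngeneic C57BL/6J mice and were taken at day 12. The study's methods describe female mice bought at 6 to 8 weeks of age for both groups, and a knock-out made with a lentiviral CRISPR guide and puromycin selection, of which a single clone was engrafted, so that an effect of the clone and an effect of Ago2 cannot be told apart. The knock-out concerns the cancer cells only, and the host cells of every tumor were wild-type. Whole tumors were lysed, hence the libraries hold RNA of cancer cells and of host immune, stromal, skin and muscle cells. In such bulk samples, fewer cells of a type and less RNA per cell cannot be told apart.

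Ligands of the TNF superfamily are mostly membrane proteins that act as trimers, on the cell surface or after shedding, and each binds a small set of receptors. Receptors with a death domain can recruit caspases and trigger apoptosis, and many of the others, apart from decoy receptors, recruit TRAF adaptors and activate NF-kappaB and MAP kinases. In tumors the family is known for the killing of cancer cells by TNF, Fas ligand and TRAIL, and for the costimulation of T cells, B cells and dendritic cells through receptors such as CD40, 4-1BB and OX40.

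The transcript of the targeted gene, Ago2, was not lower in the tumors labelled ΔAgo2. It was at 129.9, 195.0, 151.3 and 138.5 CPM (a count divided by the TMM-scaled total of its library and multiplied by 1e+06) in the wild-type tumors, in the order of their numbers, and at 118, 355, 215 and 270 CPM in the 4 tumors labelled ΔAgo2 (log2 fold change 0.64 ± 0.30 (SE), adjusted p = 0.205, edgeR quasi-likelihood test). RNA level therefore did not check the labels. Depth ran from 7903288 counts in wild-type tumor 4 to 268564145 in tumor 4 labelled ΔAgo2, and a count of 0 allows a level of 0.43 CPM in the former and of 0.0105 CPM in the latter (3 counts, counting error only). Some libraries stood apart for other cell types. Skeletal muscle markers summed to 3655 CPM in wild-type tumor 3 and to between 59.2 and 537 CPM elsewhere. Keratinocyte markers summed to 11.1 CPM in the same tumor and to between 166 and 845 CPM elsewhere. Adipocyte markers summed to 339 CPM in tumor 1 labelled ΔAgo2 and to 177 CPM in wild-type tumor 3. In the other tumors adipocyte markers summed to between 9.64 and 35.0 CPM. All 8 keratinocyte genes had positive fold changes (median log2 fold change 1.43, 1 called higher) and all 8 muscle genes negative ones (median -2.87). Fibroblast markers summed to 4866 to 7199 CPM in wild-type tumors and to 2217 to 4595 CPM in tumors labelled ΔAgo2. Of the 8 fibroblast genes, 2 had positive fold changes, and the median log2 fold change was -0.67 (1 called lower). The sum was made up mostly of Col3a1, whereas Pdgfra averaged 79.8 CPM in wild-type tumors and 128 CPM in tumors labelled ΔAgo2. The part of these cells in the results below was not tested, and no list used here marks the LLC cells themselves.

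Among the ligands, the promoters of Tnfsf10 and Tnfsf8 are shown because Tnfsf10 was the ligand that passed the test and Tnfsf8 the other ligand whose groups did not overlap. RefSeq windows (GRCm38.p6) were found for 37 of the 47 members. None was found for Cd40, so its promoter was not searched. The 250 bases before each RefSeq start are printed on the strand of the gene, chr3:27316827-27317076 (plus strand) for Tnfsf10 and chr4:63861285-63861534 (minus strand) for Tnfsf8. The RefSeq starts differ from the GENCODE starts of these genes (27317028 and 63861347). The end of each window therefore lies within the GENCODE gene. Capitals mark matches on either strand to AANNGAAA, the core recognised by interferon regulatory factors.
Tnfsf10: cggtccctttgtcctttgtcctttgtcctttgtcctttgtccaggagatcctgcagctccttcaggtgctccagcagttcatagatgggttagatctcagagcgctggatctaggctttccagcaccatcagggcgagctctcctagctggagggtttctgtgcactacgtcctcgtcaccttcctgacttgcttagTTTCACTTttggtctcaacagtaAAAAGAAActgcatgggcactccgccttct
Tnfsf8: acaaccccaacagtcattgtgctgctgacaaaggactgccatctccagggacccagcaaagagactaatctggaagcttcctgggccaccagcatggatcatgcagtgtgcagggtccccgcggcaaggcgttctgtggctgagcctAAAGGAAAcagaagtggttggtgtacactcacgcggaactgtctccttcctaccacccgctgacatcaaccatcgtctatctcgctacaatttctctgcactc
The Tnfsf10 window held 2 matches, which began 53 and 30 bases before the RefSeq start. The first of these spans the GENCODE start of Tnfsf10 and the second lies within the GENCODE gene. The Tnfsf8 window held 1 match, at 103 bases before its RefSeq start, which lies before its GENCODE start as well. In windows of 300 bases (250 before to 50 after the start), the core was present in 14 of 41 member windows (34.1%) and in 23.9% of the 32841 windows of all genes. A stricter interferon-response repeat, GAAA, any 2 bases and GAAA on either strand, was found in 4 of 41 member windows (9.76%, those of Tnfrsf14, Tnfrsf17, Tnfrsf1b and Tnfsf13b) and in 3.44% of all windows. It overlaps the core motif by design and was not in the Tnfsf10 or Tnfsf8 window. The NF-kappaB consensus was found in 4 member windows as well (9.76%, those of Ltb, Tnfrsf25, Tnfrsf8 and Tnfrsf9) and in 8.46% of all windows. These letters are a description of the windows and not evidence of binding.

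The comparison of both groups asked which members changed in tumors whose cancer cells carried the knock-out label. Of 38 members tested, 2 were higher in tumors labelled ΔAgo2, the ligand Tnfsf10 and the receptor Cd40, and 0 were lower at an adjusted p under 0.05. That is 5.26% of the members, where 3.49% of all genes tested were called in either direction and 1.36% were called higher. At an unadjusted p under 0.05 there were 6 members (15.8%) and 4281 of all genes (26.7%). The DESeq2 Wald test called the same 2 members and 14.3% of all genes, whereas limma voom with quality weights called 9 (6 higher and 3 lower) and 27.9% of all genes. In 3 of 38 members (7.89%), Tnfsf10, Cd40 and Tnfsf8, the values of both groups did not overlap, and this was so for 16.4% of all genes. Fold changes were positive in 20 members and negative in 18, with a median log2 fold change of 0.14 (0.04 over all genes). Of the 38 members, 32 had a 95% interval that held 0, but only 10 had an interval that lay wholly between a log2 of -1 and 1, so that the intervals of the others include changes of that size.

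**Figure D1:**
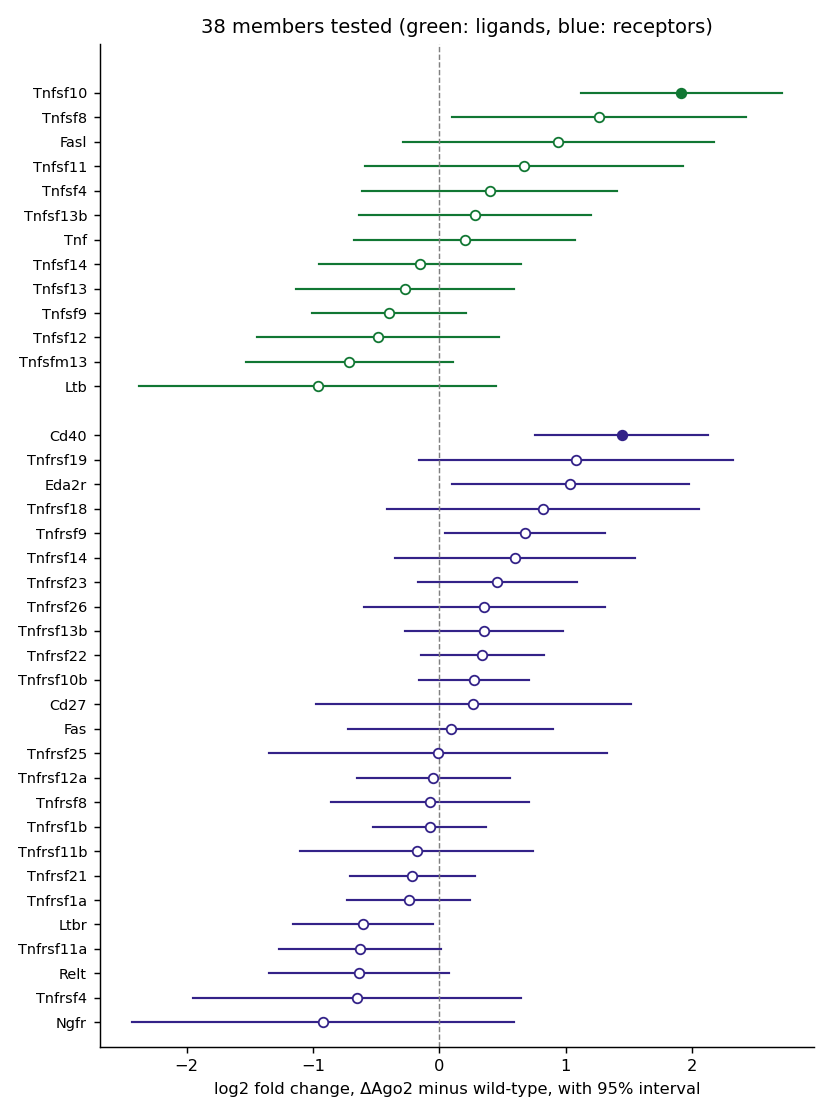
Log2 fold change (tumors labelled ΔAgo2 minus wild-type tumors) of the 38 members tested, with 95% intervals, ligands in green above and receptors in blue below; filled points passed an adjusted p of 0.05. Tnfsf10 (1.92) and Cd40 (1.44) are the filled points, and most other intervals cross 0.

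Of the death ligands, Tnfsf10 (ENSMUSG00000039304.11, chromosome 3, 27317028 to 27342427, GRCm38) encodes TRAIL, which triggers apoptosis through death receptors and is known to be induced by interferon. Tnfsf10 was at 1.69, 1.14, 1.18 and 1.15 CPM in the wild-type tumors and at 4.41, 7.95, 3.37 and 3.95 CPM in the tumors labelled ΔAgo2. Every tumor labelled ΔAgo2 was above every wild-type tumor, and tumor 2 labelled ΔAgo2 was the highest. Group averages of 1.29 ± 0.27 CPM and 4.92 ± 2.06 CPM (SD, n = 4 each) gave a fitted 3.77-fold difference (log2 fold change 1.92 ± 0.36 (SE), 95% interval 1.12 to 2.71, edgeR adjusted p = 0.0222). These values rest on 90, 24, 56 and 8 counts in the wild-type libraries and on 215, 906, 113 and 1129 counts in the others, and the call was lost in 3 of the fits without a single library (without wild-type tumor 2, adjusted p = 0.0848; without tumor 2 labelled ΔAgo2, 0.0717; without tumor 4 labelled ΔAgo2, 0.0612). Once the dependence of counts on GC content was removed, the log2 fold change was 1.45 with an adjusted p of 0.0308.

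Fasl, the ligand of the death receptor Fas carried by cytotoxic lymphocytes, was at 0.206, 0.286, 0.147 and 0 CPM in wild-type tumors and at 0.595, 0.316, 0.269 and 0.245 CPM in tumors labelled ΔAgo2. The groups overlapped, and the difference did not pass (log2 fold change 0.94, adjusted p = 0.295). Beside both death ligands, markers of CD8 T and NK cells, which can express them, summed to 31.2, 17.3, 14.5 and 20.6 CPM in wild-type tumors and to 56.5, 29.2, 30.3 and 26.5 CPM in tumors labelled ΔAgo2. All 9 genes of that list were above 0 in log2 fold change and none passed the test. In tumor 1 labelled ΔAgo2, Cd8a, Cd8b1 and Nkg7 were at 2.75, 2.30 and 10.3 CPM. In the other tumors of that group they were at most at 0.728, 0.361 and 2.81 CPM, below their wild-type averages of 0.853, 0.496 and 3.58 CPM. In Gzmb, Prf1 and Ncr1 of this list of 9 the groups did not overlap, as was so for 16.4% of all genes tested. In the other genes of the list the groups overlapped. The part of CD8 T and NK cells in the values of Tnfsf10 and Fasl was not tested.

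The death receptors themselves did not pass. Tnfrsf10b, the mouse receptor of TRAIL, was at 41.2 ± 4.15 CPM (SD, n = 4) in wild-type tumors and at 49.9 ± 9.60 CPM (SD, n = 4) in tumors labelled ΔAgo2 (log2 fold change 0.27, 95% interval -0.16 to 0.71, adjusted p = 0.382). Fas stood at 2.04 ± 0.83 and 2.23 ± 0.56 CPM (SD, n = 4 each), with a log2 fold change of 0.09. Tnfrsf21 (death receptor 6) and Tnfrsf25 (death receptor 3) had log2 fold changes of -0.21 and -0.01. The genes of mouse TRAIL decoy receptors on chromosome 7, Tnfrsf22, Tnfrsf23 and their neighbour Tnfrsf26, did not pass and had log2 fold changes of 0.34, 0.46 and 0.36 and adjusted p-values of 0.335, 0.313 and 0.614. These 3 genes are closely related copies that lie next to each other, and how reads that match several of them were counted is not stated, hence their separate values are uncertain.

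In the inflammatory arm no member passed. Tnf, the cytokine of activated macrophages and lymphocytes, was at 5.23, 4.39, 2.27 and 2.01 CPM in wild-type tumors and at 5.33, 3.98, 4.72 and 2.22 CPM in tumors labelled ΔAgo2. Both groups covered the same range (log2 fold change 0.20, 95% interval -0.68 to 1.08, adjusted p = 0.769). Its widely expressed receptor Tnfrsf1a was at 227 ± 50.9 CPM in wild-type tumors and 192 ± 36.5 CPM in tumors labelled ΔAgo2 (SD, n = 4 each), and Tnfrsf1b, the receptor found mainly on leukocytes and endothelium, was at 57.6 ± 11.004 and 54.5 ± 8.27 CPM. Their log2 fold changes were -0.24 (95% interval -0.73 to 0.25) and -0.08 (95% interval -0.53 to 0.37), so that a change in Tnfrsf1b by more than a log2 of 0.53 in either direction lay outside its interval.

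Of the 4 lymphotoxin genes tested, 3 had negative fold changes and none passed. Ltb, which anchors lymphotoxin on lymphocytes, had the lowest log2 fold change of all members tested (-0.96, 95% interval -2.38 to 0.45, adjusted p = 0.345). It was at 5.30, 6.48, 2.35 and 13.9 CPM in wild-type tumors and at 8.58, 1.79, 1.91 and 1.81 CPM in tumors labelled ΔAgo2. Tumor 1 labelled ΔAgo2 stood with the wild-type tumors here, and wild-type tumor 3 was close to the other 3 tumors labelled ΔAgo2. Its receptor Ltbr, an activator of the non-canonical NF-kappaB pathway in stromal and myeloid cells, was at 134, 185, 116 and 250 CPM in wild-type tumors and at 132, 96.2, 109 and 113 CPM in tumors labelled ΔAgo2 (log2 fold change -0.60 ± 0.25 (SE), adjusted p = 0.162). Only tumor 1 labelled ΔAgo2 lay within the wild-type range. After removal of the GC trend, the log2 fold change of Ltbr was 0.04 (adjusted p = 0.886), so that even the direction depended on that step. Tnfsf14 (LIGHT) was at 1.70 ± 0.57 and 1.56 ± 0.39 CPM (SD, n = 4 each), and its receptor Tnfrsf14 (HVEM), also bound by the inhibitory receptor BTLA, at 4.66 ± 3.13 and 7.15 ± 1.92 CPM with a log2 fold change of 0.60 (adjusted p = 0.379). Lta was too low to test, with 4 to 32 counts per library.

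**Figure D2:**
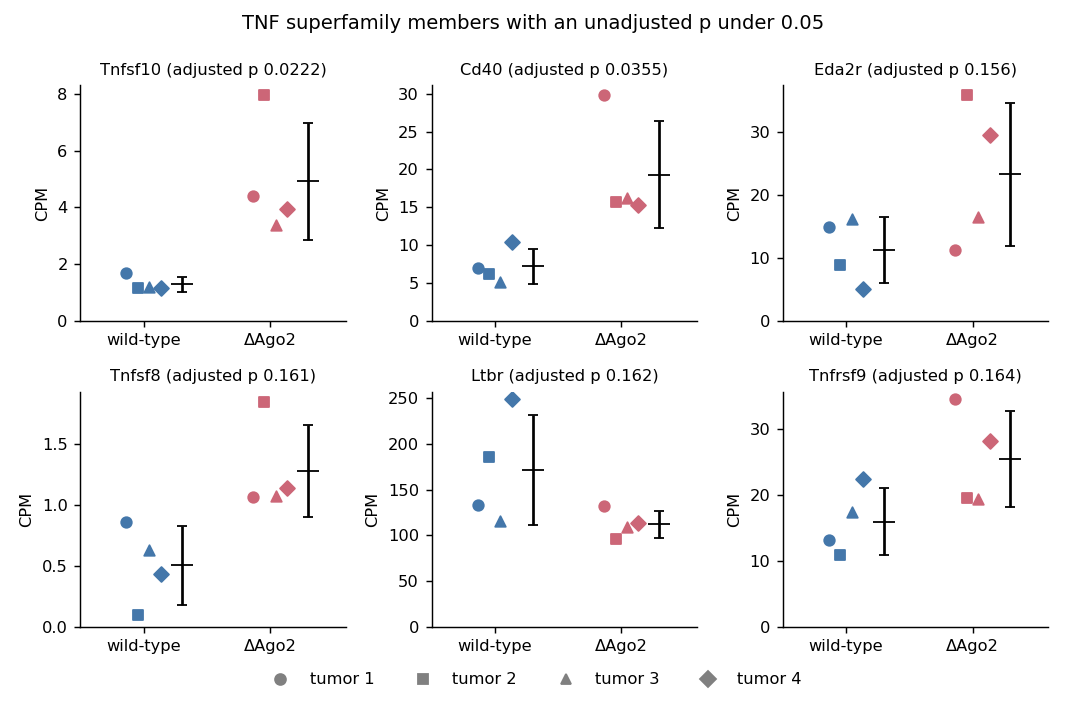
CPM (linear axis from 0) in each of the 8 tumors for the 6 members with an unadjusted p under 0.05, wild-type in blue and ΔAgo2-labelled in red; marker shape gives the tumor number and bars give the mean and SD of 4 tumors. The groups do not overlap for Tnfsf10, Cd40 and Tnfsf8, while tumors of both groups share part of the range for Eda2r, Ltbr and Tnfrsf9.

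Among the costimulatory pairs, Cd40 was the receptor that rose. Cd40 (ENSMUSG00000017652.16, chromosome 2, 165055627 to 165072948, GRCm38) is carried by B cells, dendritic cells and macrophages, in which it licenses antigen presentation when T cells present CD40 ligand, and it can also be found on tumor and stromal cells. It was at 6.93, 6.20, 5.17 and 10.5 CPM in wild-type tumors and at 29.9, 15.7, 16.3 and 15.3 CPM in tumors labelled ΔAgo2. All 4 tumors labelled ΔAgo2 were above all wild-type tumors, and tumor 1 stood far above the other 3. With group averages of 7.19 ± 2.30 and 19.3 ± 7.06 CPM (SD, n = 4 each), Cd40 showed a fitted 2.72-fold difference (log2 fold change 1.44 ± 0.31 (SE), 95% interval 0.76 to 2.13, edgeR adjusted p = 0.0355). Without tumor 1 labelled ΔAgo2 the log2 fold change was 1.15 and passed (adjusted p = 0.0323), and after removal of the GC trend it was 1.49 (adjusted p = 0.0178). The call was lost in 5 of the fits without a single library, namely without wild-type tumors 1 or 2 (adjusted p = 0.0567 and 0.112) or without tumors 2, 3 or 4 labelled ΔAgo2 (0.0717, 0.0730 and 0.0848). Cd40 is one of the genes of the interferon signature that the study chose on these same tumors, so its direction is not independent evidence.

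On the scale of TPM (counts divided by gene length and scaled to the same total in each library) deposited by the authors, Cd40 was at 5.80, 5.18, 4.37 and 6.19 TPM in wild-type tumors and at 19.2, 16.8, 15.1 and 15.3 TPM in tumors labelled ΔAgo2. Tumor 1 labelled ΔAgo2 no longer stood apart on this scale. Relative to CPM, the TPM of all well-measured members was multiplied by a common factor for each library, which was 0.713 in wild-type tumor 4, 0.777 in tumor 1 labelled ΔAgo2, 1.01 to 1.02 in the other wild-type tumors and 1.12 to 1.30 in the other tumors labelled ΔAgo2. A level in TPM therefore reads higher, next to CPM, in 3 of the 4 tumors labelled ΔAgo2.

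The markers of cells known to carry CD40 are given beside it. B cell markers summed to between 2.72 and 6.63 CPM in wild-type tumors and to between 4.03 and 6.96 CPM in tumors labelled ΔAgo2, with Ms4a1 at 0 counts in some libraries. Dendritic cell markers summed to 13.0 to 21.2 CPM and to 10.7 to 19.9 CPM, and macrophage and monocyte markers to 1652 to 1882 CPM and to 1173 to 2896 CPM. In tumor 1 labelled ΔAgo2, which had the most Cd40, macrophage markers were at 2896 CPM and dendritic cell markers at 19.9 CPM. In the other 3 tumors labelled ΔAgo2, macrophage markers lay between 1173 and 1435 CPM and dendritic cell markers between 10.7 and 12.1 CPM. The macrophage sum is made up mostly of C1qa, C1qb and C1qc, and the genes of these lists did not share a direction. Of the 10 macrophage and monocyte genes 5 had positive fold changes, and of the 6 dendritic cell genes 2 had. Ccr2, a receptor of monocytes, was at 44.8, 19.8, 40.2 and 9.75 CPM in wild-type tumors and at 48.6, 102, 51.8 and 66.2 CPM in tumors labelled ΔAgo2. Fcgr1 averaged 40.4 and 69.0 CPM, and Zbtb46 of the dendritic cell list 2.38 and 3.19 CPM, in wild-type tumors and in tumors labelled ΔAgo2 respectively. Other genes of these lists went the other way. In the same order, Csf1r averaged 206 and 156 CPM, Cd68 169 and 119 CPM, and Flt3 of the dendritic cell list 5.50 and 2.48 CPM. The part of these cells, of B cells and of cancer or stromal cells in the Cd40 values was not tested. Its ligand Cd40lg, a product of activated helper T cells, was too low to test, with 1, 0, 0 and 0 counts in wild-type libraries and 2, 2, 1 and 8 counts in libraries labelled ΔAgo2.

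Tnfsf8 (CD30 ligand; ENSMUSG00000028362.2, chromosome 4, 63831308 to 63861347) was at 0.862, 0.0953, 0.631 and 0.430 CPM in wild-type tumors and at 1.07, 1.84, 1.07 and 1.14 CPM in tumors labelled ΔAgo2. The groups did not overlap, yet the difference did not pass (log2 fold change 1.26 ± 0.53 (SE), 95% interval 0.10 to 2.42, adjusted p = 0.161). Counts were low, at 46, 2, 30 and 3 in the wild-type libraries. Its receptor Tnfrsf8 (CD30) had a log2 fold change of -0.07.

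Tnfrsf9 (4-1BB), a costimulatory receptor of activated T and NK cells, was at 13.1, 10.8, 17.4 and 22.4 CPM in wild-type tumors and at 34.4, 19.6, 19.4 and 28.1 CPM in tumors labelled ΔAgo2. Wild-type tumor 4 reached into the range of the tumors labelled ΔAgo2, and the difference did not pass (log2 fold change 0.68 ± 0.29 (SE), adjusted p = 0.164). Its ligand Tnfsf9 was at 9.24 ± 2.55 and 6.97 ± 1.66 CPM (SD, n = 4 each), with a log2 fold change of -0.40. Both genes were thus measured well above the floor of every library, with opposite signs and neither past the test.

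Receptors known from T cells and regulatory T cells were higher in tumor 1 labelled ΔAgo2 than in the other tumors of that group. Tnfrsf18 (GITR) was at 6.01 CPM in tumor 1 labelled ΔAgo2 and at 1.09 to 2.00 CPM in the other 3, Cd27 at 1.52 CPM and 0.351 to 0.597 CPM, and Tnfrsf4 (OX40) at 8.23 CPM and 1.96 to 3.73 CPM. In the same tumor T cell markers summed to 31.2 CPM, whereas they summed to between 5.87 and 8.69 CPM in the other tumors labelled ΔAgo2 and to between 5.76 and 15.3 CPM in wild-type tumors. Regulatory T cell markers summed to 7.04 CPM in that tumor and to between 5.22 and 6.91 CPM in the others labelled ΔAgo2. In wild-type tumors they summed to between 3.89 and 8.25 CPM. The part of T cell and regulatory T cell content in the receptor values was not tested. The log2 fold changes were 0.82 for Tnfrsf18, 0.27 for Cd27 and -0.65 for Tnfrsf4, with adjusted p-values of 0.355, 0.783 and 0.486. Tnfrsf4 was highest in wild-type tumor 4 (14.9 CPM). The exons of Tnfrsf18 overlap an antisense gene, Gm16008, over 27.2% of their length, and the strand setting of the counting is not stated. Of their ligands, Tnfsf4 (OX40 ligand) had a log2 fold change of 0.40, and Tnfsf18 and Cd70 were too low to test, as was Tnfsf15.

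**Figure D3:**
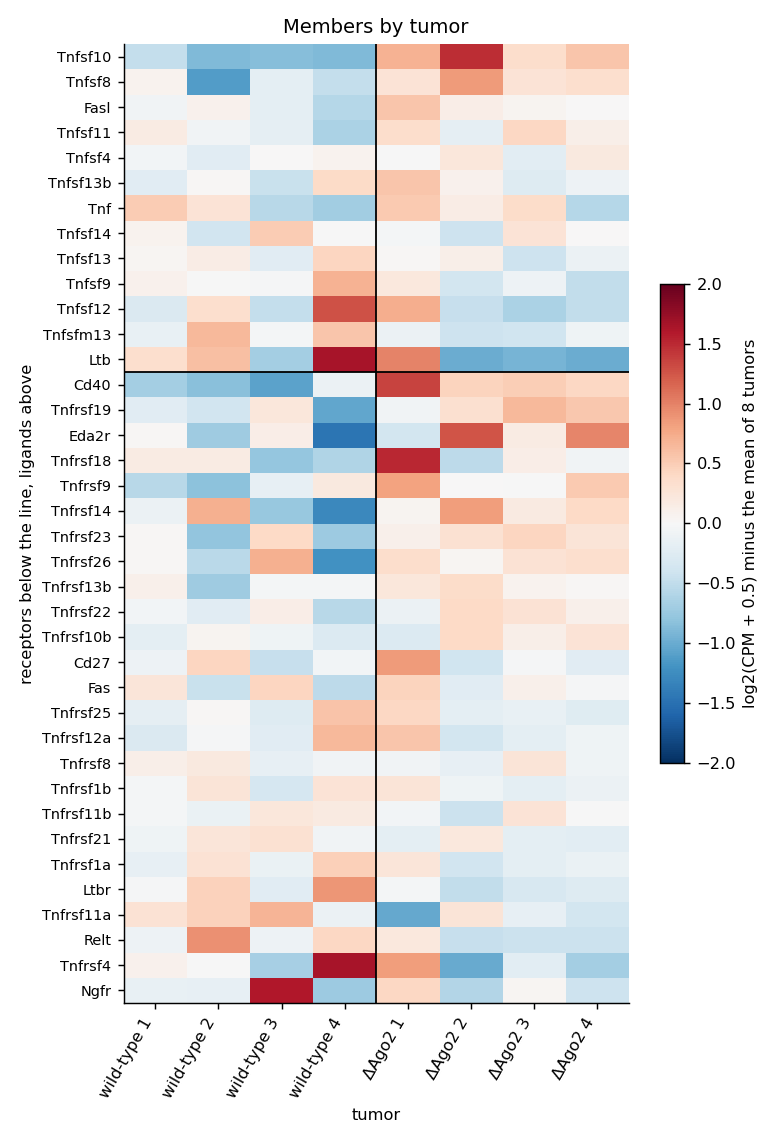
Heat map of log2(CPM + 0.5) minus the mean of the 8 tumors for the 38 members tested (rows, ligands above the black line and receptors below) in each tumor (columns, wild-type left and ΔAgo2-labelled right). Red is above and blue below a member's mean; wild-type tumor 4 and tumor 1 labelled ΔAgo2 are both red for Ltb, Tnfrsf4, Tnfsf12 and Tnfrsf12a.

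The B cell survival factors and their receptors were low and did not pass. Tnfsf13b (BAFF) was at 0.948 ± 0.365 and 1.09 ± 0.414 CPM (SD, n = 4 each), with a log2 fold change of 0.28, and Tnfsf13 (APRIL) at 0.825 ± 0.250 and 0.648 ± 0.173 CPM, with -0.28. Their shared receptor Tnfrsf13b (TACI) was at 3.99 ± 1.01 and 5.11 ± 0.64 CPM, with 0.35. The other receptors of this set, Tnfrsf13c (BAFF receptor) and Tnfrsf17 (BCMA), had at most 16 and 5 counts in any library and were not tested.

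In the bone group, Tnfrsf11a (RANK), the receptor that drives osteoclast formation, was at 25.8, 29.4, 34.1 and 19.5 CPM in wild-type tumors and at 10.1, 25.3, 18.8 and 16.2 CPM in tumors labelled ΔAgo2. Only tumor 2 labelled ΔAgo2 lay within the wild-type range, and the difference did not pass (log2 fold change -0.63, adjusted p = 0.194). After removal of the GC trend, the log2 fold change of Tnfrsf11a was -0.81 (adjusted p = 0.0945). Its ligand Tnfsf11 (RANKL) and the soluble decoy Tnfrsf11b (osteoprotegerin) had log2 fold changes of 0.67 and -0.18.

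The tissue repair pair, Tnfsf12 (TWEAK) and its receptor Tnfrsf12a (Fn14), was among the most abundant. Tnfsf12 was at 18.0, 28.1, 15.7 and 54.2 CPM in wild-type tumors and at 36.9, 15.8, 14.1 and 15.5 CPM in tumors labelled ΔAgo2 (log2 fold change -0.48, adjusted p = 0.485). Tnfrsf12a was at 64.7 ± 21.4 and 62.4 ± 19.3 CPM (SD, n = 4 each), with a log2 fold change of -0.05. Both were highest in wild-type tumor 4 and next highest in tumor 1 labelled ΔAgo2. The readthrough gene Tnfsfm13 (-0.71, adjusted p = 0.238) shares 44.0% of its exon bases with Tnfsf13 and 32.7% with Tnfsf12, so that the values of these 3 genes are uncertain.

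Of the ectodysplasin group, which is known for the development of hair and skin appendages, Eda2r (XEDAR, a target of p53) was at 14.9, 8.82, 16.1 and 5.02 CPM in wild-type tumors and at 11.3, 35.9, 16.5 and 29.5 CPM in tumors labelled ΔAgo2. Tumors 2 and 4 labelled ΔAgo2 were well above the wild-type range, tumor 3 was just above it and tumor 1 within it (log2 fold change 1.04 ± 0.43 (SE), adjusted p = 0.156). After removal of the GC trend its log2 fold change was 0.41 (adjusted p = 0.392). Eda and Edar were too low to test, and Edar was at 0 counts in 6 of the 8 libraries.

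The remaining receptors were Ngfr, Tnfrsf19 and Relt. Ngfr, the low-affinity neurotrophin receptor of nerve and stromal cells, was at 3.47 CPM in wild-type tumor 3 and at 0.287 to 1.23 CPM elsewhere, and wild-type tumor 3 was also the tumor with the most skeletal muscle RNA (log2 fold change -0.92, adjusted p = 0.396). Tnfrsf19 (TROY) was at 0.375, 0.286, 0.694 and 0 CPM in wild-type tumors and at 0.472, 0.781, 1.10 and 0.991 CPM in tumors labelled ΔAgo2 (log2 fold change 1.08, adjusted p = 0.238). Relt was at 7.77 ± 2.94 and 4.98 ± 1.36 CPM (SD, n = 4 each), with a log2 fold change of -0.64 (adjusted p = 0.229).

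Levels between genes were compared per gene length, in the authors' TPM. The highest mean over the 8 tumors was that of Tnfrsf1a (225 TPM), followed by Ltbr (165 TPM), Tnfrsf12a (90.4 TPM), Tnfsf12 (43.1 TPM), Tnfrsf1b (41.4 TPM), Tnfrsf10b (24.7 TPM), Tnfrsf9 (21.5 TPM) and Tnfsf9 (17.3 TPM). Receptors made up 8 of the 10 highest members. In all, 14 members had a mean of at least 10 TPM, 13 lay between 1 and 10 TPM and 20 were under 1 TPM, of which 11 of the 19 ligands and 9 of the 28 receptors. Cd40 was at 5.38 TPM in wild-type tumors and 16.6 TPM in tumors labelled ΔAgo2, and Tnfsf10 at 0.652 and 2.98 TPM, so that the ligand that rose was among the low members and its receptor Tnfrsf10b (20.2 and 29.2 TPM) stood well above it in both groups.

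**Figure D4:**
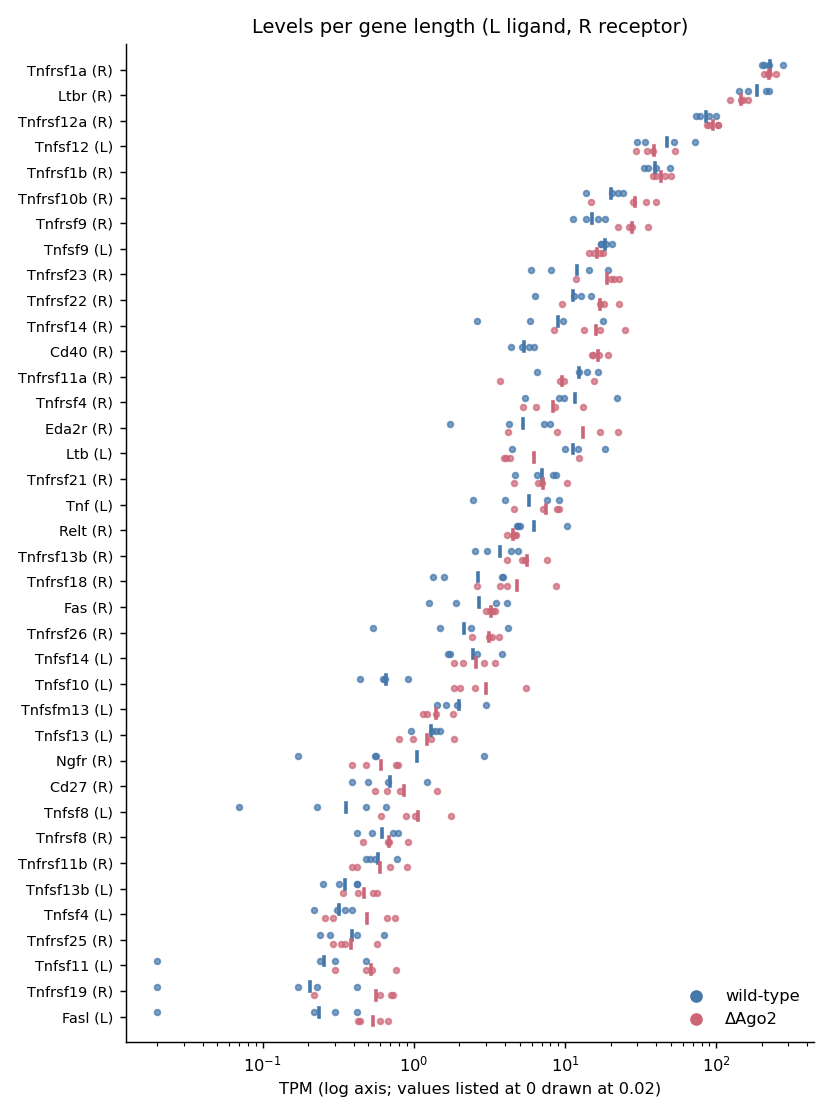
TPM (log axis, values listed at 0 drawn at 0.02) of the 38 members tested, ordered by their mean, with wild-type tumors in blue and ΔAgo2-labelled tumors in red; points are tumors and vertical ticks are group means. Tnfrsf1a, Ltbr and Tnfrsf12a lead at 225, 165 and 90.4 TPM, and Fasl, Tnfsf11 and Tnfrsf19 close the order below 1 TPM.

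Neighbouring members shared a sign in most loci but not in all. Within 500000 bases of each other, 24 members form 9 loci. Those with at least 2 tested members were all positive in 2 loci (Tnfsf4 with Fasl on chromosome 1, and the decoy receptors on chromosome 7), all negative in 3 (Tnfsfm13, Tnfsf13 and Tnfsf12 on chromosome 11, Tnfsf9 and Tnfsf14 on chromosome 17, and Tnfrsf1b with Tnfrsf8 on chromosome 4) and mixed in 3 (Ltb with Tnf, Tnfrsf4 with Tnfrsf18, and Cd27, Ltbr and Tnfrsf1a). These signs are a description, since single members of the loci did not pass. Tnfsfm13 shares exons with Tnfsf13 and Tnfsf12, and the chromosome 7 genes are closely related copies, so the signs within these loci are not independent.

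Fold changes of the members varied with their GC content. Across the 38 members, which share the same 8 libraries, Spearman's rho between log2 fold change and transcript GC content was -0.616 (Pearson's r -0.604), and it was -0.572 over all genes tested. Of the 15 members below the median GC content of all genes (50.3%), 13 were positive, whereas 7 of the 23 at or above it were. After the GC trend of each library was removed, 11 of 15 and 15 of 23 were positive, rho among the members was -0.103, and Tnfsf10 and Cd40 were still the 2 members called. GC content lay at 44.4% in Tnfsf10, 51.6% in Cd40, 42.6% in Tnfsf8 and 62.0% in Ltb.

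**Figure D5:**
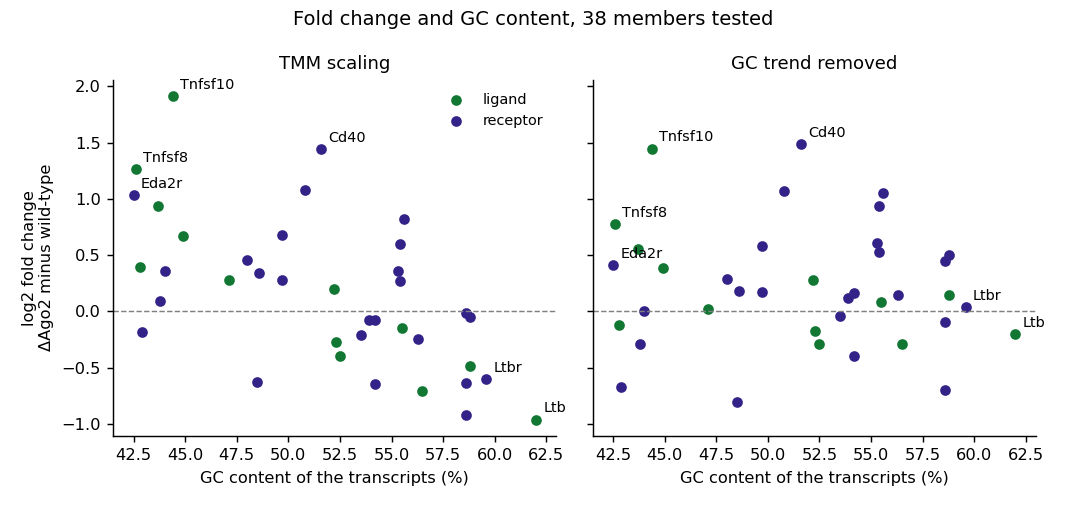
Log2 fold change (tumors labelled ΔAgo2 minus wild-type) against transcript GC content (percent) of the 38 members tested, with TMM scaling alone (left) and after the GC trend of each library was removed (right); ligands green, receptors blue. The downward slope on the left (rho -0.616) is nearly flat on the right (rho -0.103), and Tnfsf10 and Cd40 stay at the top of both panels.

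Libraries also differed in how often they held the extreme value of a member. Tumor 1 labelled ΔAgo2 was the highest of its group in 20 of the 38 members (52.6%, and 38.7% of all genes), and tumor 4 labelled ΔAgo2, the deepest library, in 1 (2.63%, and 10.8% of all genes). Tumor 1 labelled ΔAgo2 was the lowest of its group in 21.1% of the members (43.2% of all genes) and tumor 2 labelled ΔAgo2 in 42.1% (29.6%). In the wild-type group, tumor 4 was the highest in 36.8% of the members (29.6% of all genes) and tumor 3 the lowest in 34.2% (25.3%).

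A list of 48 genes linked to the signalling of these receptors was taken, from adaptors to transcription factors and membrane shedding. All of them were tested. Of these, 1 was higher and 1 was lower (4.17%, beside 3.49% of all genes), 28 were positive and 20 negative, the median log2 fold change was 0.11 (0.04 over all genes), and the groups did not overlap in 9 (16.4% of all genes did not). Map3k5 (ASK1), a kinase that links TNF receptors and stress to JNK and p38, was at 5.90, 7.15, 6.68 and 5.45 CPM in wild-type tumors and at 16.5, 21.9, 15.1 and 19.0 CPM in tumors labelled ΔAgo2. It rose in every tumor labelled ΔAgo2 (log2 fold change 1.52 ± 0.22 (SE), edgeR adjusted p = 0.00657), and the log2 fold change was 1.47 after removal of the GC trend (adjusted p = 0.00197). The call of Map3k5 was lost in the 3 TPM fits (limma adjusted p = 0.0585, 0.0656 and 0.123) and with the replicate number as a block (0.0634). Traf4, a TRAF adaptor known mainly from epithelial and neural development, was at 115, 165, 105 and 208 CPM in wild-type tumors and at 89.9, 55.1, 66.3 and 65.7 CPM in tumors labelled ΔAgo2. It fell by 1.10 on the log2 scale (SE 0.26, adjusted p = 0.0471), and with the GC trend removed its log2 fold change was -0.57 (adjusted p = 0.0407). The call of Traf4 was lost in 5 of the fits without a single library, with adjusted p-values up to 0.167.

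Of the signalling genes that did not pass, 7 had groups that did not overlap, and the 4 of these with the smallest p-values are given. Adam10, Xiap and Tab3, whose groups overlapped, had log2 fold changes of 1.31, 1.45 and 1.67 with adjusted p-values of 0.0800, 0.0826 and 0.0852. Nfkb2, the precursor of the non-canonical NF-kappaB subunit, was at 343 ± 162 CPM in wild-type tumors and 157.9 ± 12.2 CPM in tumors labelled ΔAgo2 (SD, n = 4 each; log2 fold change -1.12, adjusted p = 0.0707). Birc2 (cIAP1), which restrains that pathway, Traf6 and Chuk (IKK-alpha) had log2 fold changes of 0.87, 0.75 and 0.87 with adjusted p-values of 0.0724, 0.0933 and 0.0955. After removal of the GC trend these 4 were at -0.45, 0.36, 0.45 and 0.27. Of the 9 TRAF adaptors 0 were higher and 1 was lower, of the 15 kinases and transcription factors 1 was higher, and in the 9 genes of the death domain and caspase set, the 12 of ubiquitin editing and the 3 sheddases edgeR called 0 (unadjusted p under 0.05 in 0, 2 and 3 genes; DESeq2 called 0, 2 and 1). The GC step changed this for Tradd of the death domain set. Its log2 fold change went from 0.09 (edgeR adjusted p = 0.839) to 0.68 (adjusted p = 0.0306).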

How the data were processed

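RNA-seq of 8 LLC tumors (4 wild-type, 4 labelled ΔAgo2) was used, grouped by sample titles. The authors deposited raw gene counts, whole numbers with no normalization, and TPM values, which divide counts by gene length and scale each library to 1e+06. STAR and mm10 stand in the submitters' processing notes. How strand and reads with several matches were handled, and which annotation release was used, is not given in the sources used here. Identifiers were matched to GENCODE M21 on GRCm38 (99.29% of 55487 with version).

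Counts were filtered with filterByExpr, scaled by TMM and compared between genotypes with the quasi-likelihood test of edgeR 4.0.16 (R 4.3.3), with Benjamini-Hochberg adjustment over the 16061 genes tested and a threshold of 0.05. CPM uses TMM-scaled totals. The 95% intervals use the t distribution. All libraries carry the same batch label, and p-values measure the spread between tumors. The study names DESeq2, which was run as an alternative (version 1.42.0). Other alternatives were limma 3.58.1 (voom with quality weights, or log2 TPM with a pseudocount of 1 or 0.1, for genes at 0.5 TPM in 4 libraries or for all genes), other scalings, fits with no filter or with 10 counts required in each library, thinning to equal depth, GC or length trends per library as offsets, the replicate number as a block, and leaving out each library. The fit was checked on simulated counts. The depth of each library and its floor of 3 counts set the precision of low members.

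The members and lists were chosen with earlier results of these data known. Members past the threshold, and tested members whose groups did not overlap, were given with all 8 values. Other members were named by role. Signalling genes were named where they passed the threshold, with up to 4 more whose groups did not overlap, by the smallest p. Eda2r, Ltbr and Tnfrsf9, and the values per tumor of further members, were chosen after their values were seen. Promoter windows came from RefSeq (GRCm38.p6), read in Python 3.11.15.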

Additional observations from a re-analysis of the deposited data

Results flagged for a closer look

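Groups of 4 CPM values were tested for Tnfsf10, Cd40 and Tnfsf8 in each genotype. In 3 of these 6 groups, a tumor stood apart from the other 3 of its group by Dixon's criterion at 95%. Chance meets that criterion in about 1 of 20 groups. It was applied to CPM and not to TPM, so the flags hold for the CPM scale. In TPM, the wild-type tumors were at 0.91, 0.62, 0.64 and 0.44 for Tnfsf10. The tumors labelled ΔAgo2 were at 0.61, 1.77, 0.89 and 1.02 TPM for Tnfsf8 and at 19.2, 16.8, 15.1 and 15.3 TPM for Cd40. Tnfsf10 was at 1.69 CPM in wild-type tumor 1 and at 1.14 to 1.18 CPM in the other wild-type tumors, all below every tumor labelled ΔAgo2. These wild-type values rest on 90, 24, 56 and 8 counts, and Dixon's criterion takes no account of counting error. Tnfsf8 was at 1.84 CPM in tumor 2 labelled ΔAgo2 and at 1.07 to 1.14 CPM in the other 3. Cd40 was at 29.9 CPM in tumor 1 labelled ΔAgo2 and at 15.3 to 16.3 CPM in the other 3. In that tumor the summed markers of macrophages and monocytes (2896 CPM) and of T cells (31.2 CPM) were also the highest of the 8 tumors. The macrophage sum was made up mostly of C1qa, C1qb and C1qc. Fcgr1 and Ly6c2 were highest in that tumor as well, whereas Adgre1, Csf1r, Cd68, Mrc1 and Ccr2 were each higher in another tumor. The part of these cells in the Cd40 value was not tested. Without tumor 1 labelled ΔAgo2, Cd40 still passed (log2 fold change 1.15, edgeR adjusted p = 0.0323).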

How the results depend on the processing

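The number of members called was 2 and stayed at 2 with DESeq2 size factors, total counts, the DESeq2 Wald test, no count filter, GC or length correction and equal depth. It was 9 with voom and quality weights, 1 with at least 10 counts in every library (where Tnfsf10 was not tested), 1 in each of the 3 TPM fits, and 0 to 2 when each library was left out. The share of all genes called was 3.49% and became 14.3% with the DESeq2 Wald test, 27.9% with voom, 3.24% with no count filter and 11% without tumor 1 labelled ΔAgo2. In the same fits the signalling count, which was 2 of 48, became 9 with the DESeq2 Wald test, 12 with voom, 6 with no count filter, 0 in the 3 TPM fits, 1 to 9 when each library was left out (9 without tumor 1 labelled ΔAgo2), and 4 without both tumor 1 labelled ΔAgo2 and wild-type tumor 4, a setting chosen after seeing the data that left 2 members called. With GC correction 3 signalling genes were called (Traf4, Tradd and Map3k5), and with length correction 3 (Traf4, Birc2 and Map3k5). With the replicate block 0 members and 0 signalling genes were called, and with the replicate block and GC correction 1 and 1 (Cd40 and Map3k5). Same-numbered tumors did not deviate together (correlations of -0.274, 0.110, -0.056 and -0.398), and the labels do not tie them. Tnfsf10 was called in 14 of 22 alternatives (log2 fold change 1.19 to 2.09, adjusted p 1.83e-05 to 0.200), Cd40 in 17 of 23 (1.15 to 1.67, adjusted p 0.000696 to 0.116), Tnfsf8 in 0 of 21 (0.60 to 1.69, adjusted p 0.0888 to 0.396), Map3k5 in 19 of 23 (1.38 to 1.70) and Traf4 in 13 of 23 (-1.26 to -0.57). Ltbr reversed to 0.0403 with the GC correction and to 0.0415 with the replicate block and GC correction. The median log2 fold change of all genes was 0.158 with no count filter and 0.214 and 0.284 in the filtered TPM fits, against 0.039. The cause of these differences was not tested. Depth limits the members at a few counts in wild-type tumors 2 and 4.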
